A study of Mus musculus with 17 samples.

Results

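Actins and alpha-actinins are the filament proteins and the filament crosslinkers of muscle and of every other cell, and their transcripts were followed in mouse tibialis anterior muscle with and without dystrophin. The members were the 6 mouse actin genes (Acta1, Acta2, Actb, Actc1, Actg1 and Actg2) and the 4 alpha-actinin genes (Actn1, Actn2, Actn3 and Actn4), taken as every probe set annotated to exactly 1 of these symbols. The rule found 17 of the 22690 probe sets on the array, 11 for actins and 6 for alpha-actinins, and all 10 genes had at least 1.

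RNA was hybridised to 17 Affymetrix arrays of 1 channel. Of these, 5 arrays held muscle of fiona mice, a transgenic line that makes a high level of utrophin, a protein related to dystrophin, on the mdx background. Another 6 arrays held muscle of mdx mice, whose dystrophin gene is mutated, and 6 held normal muscle. The labels describe male animals aged 56 days, with the left and right muscle of an animal combined into 1 RNA sample. Fiona mice thus lack dystrophin as mdx mice do, and in published work on this line the transgene is driven by a human skeletal alpha-actin promoter, which is chiefly active in skeletal muscle fibres.

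Actin exists as a monomer and as a filament. Skeletal actin (Acta1) builds the thin filaments of adult skeletal fibres, cardiac actin (Actc1) does so in heart and in fetal and regenerating skeletal fibres, and smooth muscle actins (Acta2 and Actg2) serve contractile cells of vessel and gut walls and myofibroblasts. The cytoplasmic actins (Actb and Actg1) form the cortical and cytoskeletal filaments of all cells, and cytoplasmic gamma-actin lies beneath the fibre membrane, where the amino-terminal domains of dystrophin and utrophin bind actin filaments. Alpha-actinins are dimers that crosslink actin filaments. Actn2 and Actn3 anchor thin filaments at the Z-disc, Actn3 in fast fibres only, while Actn1 and Actn4 crosslink filaments at focal adhesions, at stress fibres and in the cortex of non-muscle cells.

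Several actin genes are known to be regulated by serum response factor, which binds a sequence named the CArG box, a pair of C, 6 bases that are each A or T, and a pair of G. The 250 bases before the annotated start of transcription, from the RefSeq promoter table on build GRCm38.p6, are printed for the 4 members whose window held this box or a version with 1 substituted base, because they include the 2 members that changed most clearly below. A substituted base was accepted only among the 6 inner bases, with the pairs at both ends intact. The matches are in capitals.
Acta1, chr8:123894776-123895025, minus strand: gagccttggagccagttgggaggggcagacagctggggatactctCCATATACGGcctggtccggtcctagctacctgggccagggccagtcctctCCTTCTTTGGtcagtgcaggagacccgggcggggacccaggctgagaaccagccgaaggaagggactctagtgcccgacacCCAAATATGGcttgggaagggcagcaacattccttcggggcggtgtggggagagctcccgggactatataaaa
Actc1, chr2:114052876-114053125, minus strand: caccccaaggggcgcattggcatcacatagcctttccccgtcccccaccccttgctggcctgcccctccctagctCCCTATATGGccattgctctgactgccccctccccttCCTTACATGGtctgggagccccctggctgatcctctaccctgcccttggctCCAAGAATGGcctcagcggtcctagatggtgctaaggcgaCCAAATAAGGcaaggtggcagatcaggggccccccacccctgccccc
Acta2, chr19:34255374-34255623, minus strand: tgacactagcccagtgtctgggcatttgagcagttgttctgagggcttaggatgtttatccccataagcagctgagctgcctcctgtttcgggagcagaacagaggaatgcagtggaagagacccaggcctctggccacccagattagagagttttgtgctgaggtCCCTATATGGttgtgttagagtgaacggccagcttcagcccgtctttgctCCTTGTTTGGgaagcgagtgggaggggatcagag
Actg1, chr11:120348496-120348745, minus strand: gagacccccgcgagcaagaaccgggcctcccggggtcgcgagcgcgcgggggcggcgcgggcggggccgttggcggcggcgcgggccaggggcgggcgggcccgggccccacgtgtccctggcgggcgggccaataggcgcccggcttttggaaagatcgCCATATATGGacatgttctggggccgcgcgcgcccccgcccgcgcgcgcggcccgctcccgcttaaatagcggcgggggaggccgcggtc
The exact box began 73 bases before the start in Acta1, 47 in Actc1 and 90 in Actg1. In Acta2 both matches, at 84 and 34 bases, had 1 substituted base, Acta1 had 2 further matches of that kind and Actc1 had 3. Of the 7 members with an entry in the table, 3 held the exact box, against 1.47% of all 32851 promoter windows of the same length, and 4 held it exactly or with 1 substituted base, against 8.59% of windows. The windows of Actn1, Actn2 and Actn4 held neither form on either strand, and Actb, Actg2 and Actn3 had no entry. A match is a description of these letters only.

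Dystrophin and utrophin transcripts were read on several probe sets, and 2 that separate the groups are given first. Dmd, the dystrophin gene, measured between 3.23 and 3.53 on fiona arrays and between 3.27 and 3.52 on mdx arrays, against 6.33 to 6.88 on normal arrays (log2 values, on the probe set that separates the groups most). Utrn, the utrophin gene, lay between 2.48 and 7.28 on fiona arrays, above all mdx arrays (2.04 to 2.10) and all normal arrays (2.07 to 2.17) on 1 of its probe sets, and 4 of the 5 fiona arrays were above the level of the unspiked bacterial controls of their array. A brighter probe set for Utrn showed no such gap, at 5.21 to 7.36 on fiona arrays, 6.45 to 7.59 on mdx arrays and 6.50 to 7.11 on normal arrays, and a dim Dmd probe set did not separate mdx from normal muscle (2.91 to 3.06 on mdx and 2.90 to 3.24 on normal arrays). All 12 defining markers of skeletal muscle were above that level on every array. Some arrays stood apart. The leading principal component of the residuals around group means, 42.7% of their variance, divided the arrays into 2 sets that no label names. Set 1 held fiona arrays 1 and 4, mdx arrays 3, 4 and 5 and normal arrays 3, 4 and 5, and set 2 held the others. Mdx and normal arrays of the same replicate number thus always shared a set. Pairs and blocks by that number below are therefore not separate from the array sets. A female pattern, against the male label, appeared on 4 fiona, 2 mdx and 1 normal array. It was read from low signal on 1 probe set of Eif2s3y, a Y-linked gene. On mdx array 1 the 3′ minus 5′ difference of the Gapdh control was 2.54, against -0.43 to 0.06 on the other arrays, and its mean correlation with the other arrays was 0.950, against 0.970 to 0.980. Precision here is set by the few arrays in each group.

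All values are the deposited log2 expression values of a probe set, so 1 unit is a factor of 2 in normalised signal. Group differences of single genes were taken within a probe set. Signal of different probe sets was set side by side in brightness ranks, in the choice of a gene's brightest probe set and in summed marker levels. It was not read as the level of 1 transcript against another. Differences were tested with limma over 22629 probe sets, and a probe set was called at a Benjamini-Hochberg adjusted p under 0.05. Values after ± are standard deviations (n = 5 fiona, n = 6 mdx and n = 6 normal arrays). In mdx against normal muscle, 1 of the 17 member probe sets was called, Actg1, which rose, against 4.03% of all probe sets called (2.73% higher and 1.30% lower). With dim probe sets left out, those above the unspiked bacterial controls on fewer than 5 arrays, 2 of 15 members were called, Actg1 and Actc1, both higher, against 6.79% of probe sets (4.46% higher and 2.33% lower). Fitting the array set as a block gave 4 of 17 called, namely Actg1, Actc1, Acta2 and Actn1, all higher, against 8.48% (4.76% higher and 3.72% lower). The sets were taken from residuals of the other probe sets on these same arrays, so that block takes up residual spread by construction. Its calls and adjusted p-values, here and below, are a description and no separate support. The median difference of the 17 was 0.00, against -0.04 over all probe sets. In fiona against mdx muscle, 6 of 17 were called, 4 lower and 2 higher, against 42.0% of all probe sets (36.0% higher and 6.08% lower). The 4 lower calls were Actc1, Actg1, 1 probe set of Actn1 and Actn4, and the median difference of the 17 was -0.14, against 0.08 over all probe sets. That large background was made mainly of small increases, with a median size of 0.17 among called probe sets. Of the 6772 dim probe sets, 4370 were called, with a median size of 0.10. With these dim probe sets left out, 3 of 15 member probe sets were called in fiona against mdx muscle, all lower, against 24.2% of probe sets (17.1% higher and 7.11% lower). The split of all calls in that comparison, 8137 higher and 1376 lower, was 1227 and 1248 when arrays were centred on their medians, where the median difference of all probe sets was -0.04, and 2424 and 932 with quantile normalization. On centred arrays 4 member probe sets were called, Actc1, Actg1, Actn1 and Actn4, all lower. In fiona against normal muscle, 0 of 17 member probe sets were called in limma and 0 had an unadjusted p under 0.05, against 0.00442% of all probe sets (1 probe set).

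**Figure D1:**
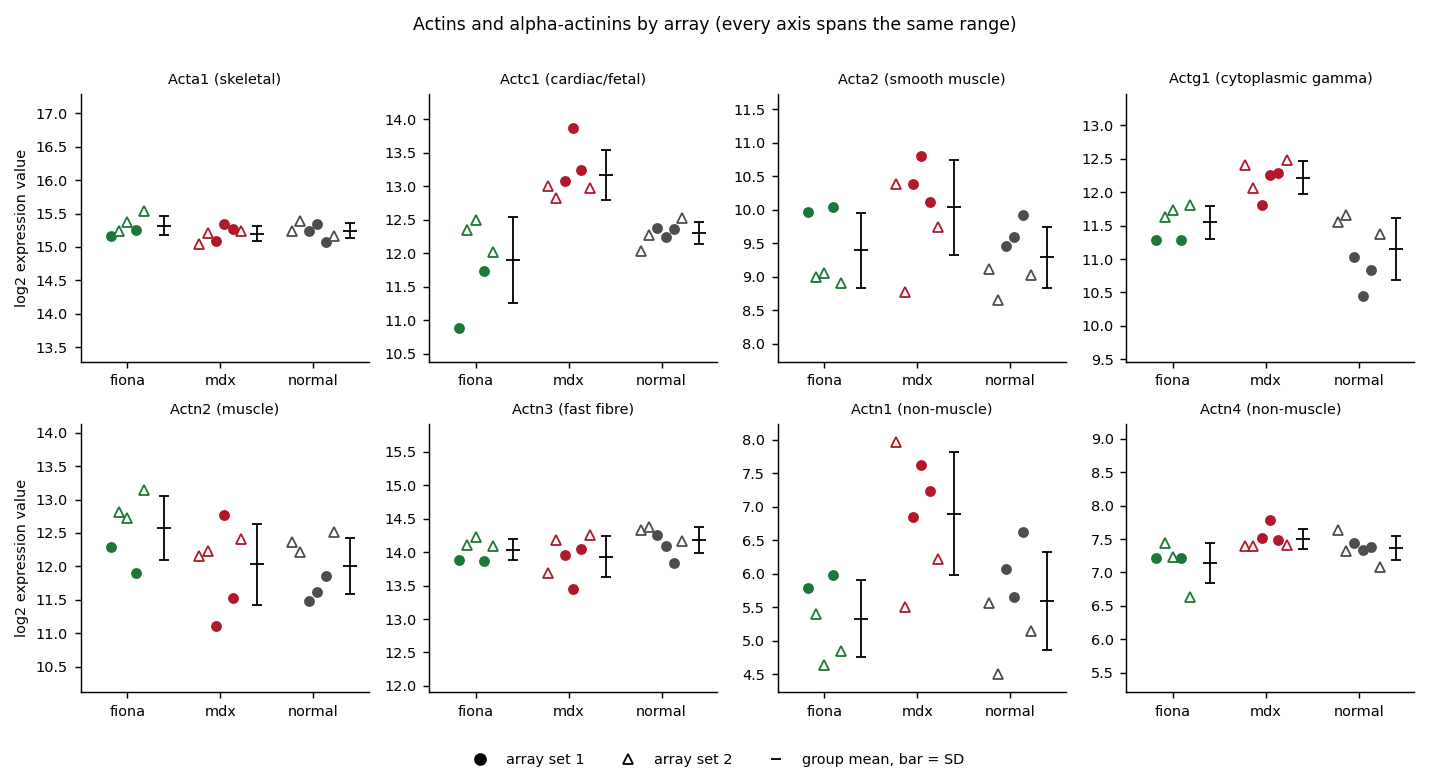
Log2 expression value (vertical axes, all spanning the same range) of 8 members on each fiona, mdx and normal array, with group means and bars of 1 standard deviation to the right of each group; filled circles are array set 1 and open triangles array set 2. Actc1 and Actg1 lie higher on all 6 mdx arrays than on any fiona or normal array, while Acta1 stays between 15.04 and 15.53 on all 17 arrays.

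**Figure D2:**
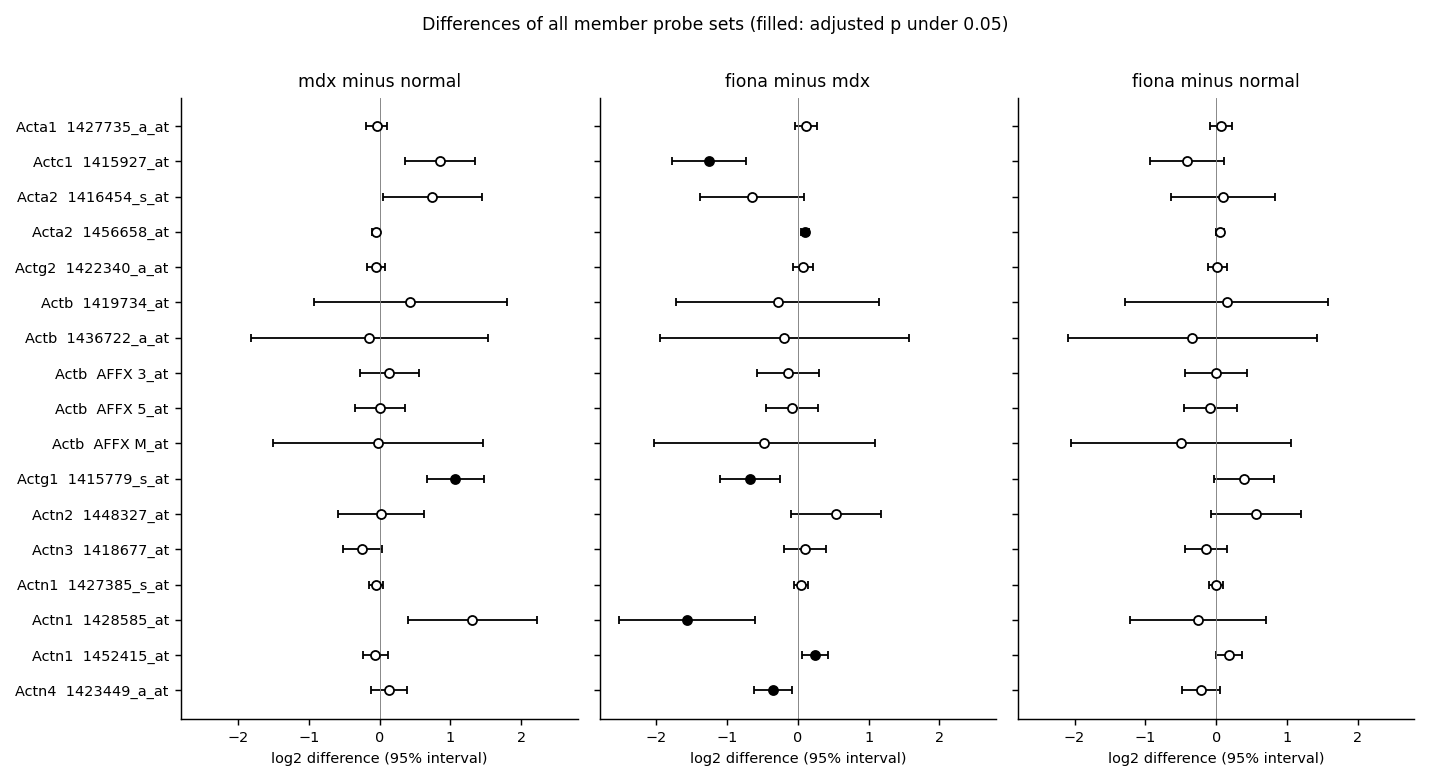
Log2 difference (horizontal axes) of all 17 member probe sets in mdx minus normal, fiona minus mdx and fiona minus normal, with 95% intervals from limma; filled points have an adjusted p under 0.05. The called differences are Actg1 in mdx minus normal and 6 probe sets in fiona minus mdx, and no point is filled in fiona minus normal.

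Among the actins of striated muscle, the adult isoform was not called in any comparison and the fetal isoform was highest in mdx muscle. Acta1, skeletal alpha-actin, measured 15.17, 15.24, 15.38, 15.26 and 15.53 on fiona arrays 1 to 5, between 15.04 and 15.35 with a median of 15.23 on mdx arrays, and between 15.08 and 15.39 with a median of 15.24 on normal arrays. The 3 groups overlapped throughout. The difference was -0.04 for mdx minus normal (95% interval -0.19 to 0.11, adjusted p = 0.674), 0.11 for fiona minus mdx (-0.04 to 0.27, adjusted p = 0.224) and 0.07 for fiona minus normal (-0.08 to 0.23, adjusted p = 0.561). Its probe set ranked between 1 and 4 in brightness on every array, and whether its signal was near a ceiling could not be checked in the deposited values.

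Actc1, the cardiac and fetal actin, was highest in mdx muscle. It measured 10.89, 12.35, 12.50, 11.74 and 12.02 on fiona arrays 1 to 5. On mdx arrays the lowest value was 12.82, the median 13.04 and the highest 13.87, and on normal arrays they were 12.04, 12.32 and 12.53. Every mdx array was above every fiona array and every normal array, whereas fiona and normal arrays overlapped, with fiona arrays 1, 4 and 5 below all normal arrays. In fiona against mdx muscle Actc1 fell 2.40-fold (11.90 ± 0.64 in fiona and 13.16 ± 0.37 in mdx muscle, log2 difference -1.26, 95% interval -1.78 to -0.74, adjusted p = 0.00850 in limma, two-sided exact permutation p = 0.00216, the smallest these group sizes allow). This call held with each single array left out and under all alternatives tried, with adjusted p between 0.00311 and 0.0278 over the other fits. It was -2.08 in set 1 (2 fiona and 3 mdx arrays) and -0.64 in set 2 (3 arrays each), and the test of the difference between sets was not called (-1.44, adjusted p = 0.205, against 0.177% of all probe sets called, 0.106% higher and 0.0707% lower). In whole muscle, more cells or fibres of a kind and more RNA in each cannot be told apart, here and for the members below. In mdx against normal muscle Actc1 was 1.81-fold higher (13.16 ± 0.37 in mdx and 12.31 ± 0.16 in normal muscle, log2 difference 0.85, interval 0.36 to 1.35), with an adjusted p of 0.0557 that missed the threshold and an exact permutation p of 0.00216. The adjusted p was 0.0366 with dim probe sets left out, 0.0398 with array set as a block and 0.0404 with the replicate number as a block on the mdx and normal arrays, and the difference was 1.06 in set 1 and 0.65 in set 2. Over these and the other alternative fits it lay between 0.00752 and 0.0788, and Actc1 was called in 10 of 14. With each single array left out the adjusted p lay between 0.00969 and 0.117, and Actc1 was called in 3 of 17 fits. In fiona against normal muscle the difference was -0.41 (interval -0.93 to 0.12, adjusted p = 0.306). It was -1.02 in set 1, where 2 fiona arrays lay below all 3 normal arrays, and 0.01 in set 2 (3 arrays each). The test of the difference between sets was not called (-1.03, adjusted p = 0.552). Over all arrays the order was mdx, normal, fiona, of which the last 2 did not differ beyond their spread.

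The smooth muscle actins were not called at the probe sets with signal. Acta2, the smooth muscle actin that also marks pericytes and myofibroblasts, measured 9.97, 9.0, 9.06, 10.04 and 8.90 on fiona arrays 1 to 5 on probe set 1416454_s_at. Its lowest, median and highest values were 8.77, 10.25 and 10.81 on mdx arrays and 8.65, 9.28 and 9.92 on normal arrays. The groups overlapped, with 4 of 6 mdx arrays above all normal arrays and mdx above normal in 6 of 6 pairs of the same replicate number, and set 1 arrays were higher than set 2 arrays by 0.84 on average within groups. The difference was 0.74 for mdx minus normal (10.04 ± 0.71 in mdx and 9.29 ± 0.46 in normal muscle, adjusted p = 0.263, exact permutation p = 0.0628), and the adjusted p was 0.0425 with array set as a block and 0.0867 with the replicate number as a block on the mdx and normal arrays. It was -0.64 for fiona minus mdx (9.39 ± 0.56 in fiona and 10.04 ± 0.71 in mdx muscle, adjusted p = 0.145, exact permutation p = 0.128). Without mdx array 2, the lowest mdx array, that difference was -0.90 with an adjusted p of 0.0244. The order was mdx, fiona, normal, and no neighbours in it were called. The suffix _s of this probe set, which the Actg1 probe set shares, marks probes that by the maker's naming may match more than 1 transcript, so signal of a related actin cannot be separated from it.

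The other probe sets of this class carried little signal. The other Acta2 probe set, 1456658_at, lay below the bacterial controls on all 17 arrays, between 2.22 and 2.40, so its called difference of 0.09 in fiona against mdx muscle (adjusted p = 0.0144) is between values at the control level, and with median-centred arrays it was -0.03. Actg2, the enteric smooth muscle actin, measured 4.63, 4.61, 4.83, 4.36 and 4.75 on fiona arrays 1 to 5, 4.54 to 4.60 on mdx arrays and 4.50 to 4.74 on normal arrays. Its 3 differences lay between -0.05 and 0.07 and none was called.

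Actg1, cytoplasmic gamma-actin, was highest in mdx muscle and lowest in normal muscle. It measured 11.28, 11.63, 11.73, 11.29 and 11.80 on fiona arrays 1 to 5. Its lowest, median and highest values were 11.81, 12.27 and 12.48 on mdx arrays and 10.45, 11.20 and 11.66 on normal arrays. All mdx arrays were above all fiona and all normal arrays, narrowly so for mdx array 3 above fiona array 5, and fiona and normal arrays overlapped. In mdx against normal muscle Actg1 rose 2.10-fold (12.22 ± 0.25 in mdx and 11.15 ± 0.46 in normal muscle, log2 difference 1.07, interval 0.67 to 1.48, adjusted p = 0.00387 in limma, exact permutation p = 0.00216). The difference was 1.35 in set 1 and 0.80 in set 2. With the replicate number as a block on the mdx and normal arrays the adjusted p was 0.0357. The call held with each single array left out (adjusted p between 0.00266 and 0.0120). It was lost, at a like size of 1.05, only when the 7 arrays with a female pattern were left out together (adjusted p = 0.0884). In fiona against mdx muscle Actg1 fell 1.59-fold (11.55 ± 0.25 in fiona and 12.22 ± 0.25 in mdx muscle, log2 difference -0.67, interval -1.10 to -0.25, adjusted p = 0.0173, exact permutation p = 0.00433). That difference was -0.83 in set 1 and -0.60 in set 2, and the call was lost with quantile normalization (-0.61, adjusted p = 0.0551). It was also lost with the replicate number as a block (-0.62, adjusted p = 0.0520) and without the female-pattern arrays (-0.87, adjusted p = 0.224), which leaves 1 fiona array. In fiona against normal muscle Actg1 was 0.40 higher (interval -0.03 to 0.82, adjusted p = 0.234). The order was mdx, fiona, normal, and the last 2 did not differ beyond their spread.

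Actb, cytoplasmic beta-actin, had 5 probe sets, none of which was called in any comparison. On probe set 1419734_at it measured 9.56, 10.80, 12.20, 9.60 and 12.78 on fiona arrays 1 to 5, with a lowest, median and highest value of 10.17, 10.93 and 12.71 on mdx arrays and of 10.12, 10.72 and 11.99 on normal arrays. All arrays of set 1 were lower than all arrays of set 2 on this probe set, in every group, and the mean gap within groups was -1.83. On probe set 1436722_a_at the fiona arrays gave 11.72, 8.58, 11.49, 12.16 and 11.44, the mdx arrays a lowest, median and highest value of 9.43, 11.19 and 13.48, and the normal arrays 10.81, 11.46 and 11.76. Here the gap between sets ran the other way, 1.80 on average within groups. Across the 17 arrays these probe sets correlated at r = -0.52, whereas 1436722_a_at correlated with the array's own control probe sets for the middle and the 3′ end of the transcript at r = 0.97 and r = 0.95, a description over arrays that share groups and sets.

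On all 5 Actb probe sets the gap between the array sets was wider on mdx than on normal arrays, a difference that was not called on any of them. On 1436722_a_at the mdx mean was 13.05 in set 1 and 9.50 in set 2, against 11.59 and 11.24 on normal arrays. The difference of mdx from normal was therefore 1.46 in set 1 and -1.75 in set 2, with mdx and normal arrays not overlapping within either set. On the middle control the same difference was 1.60 in set 1 and -1.64 in set 2, and on the 3′ control it was 0.55 and -0.28. The difference between the sets was 3.20 on 1436722_a_at (adjusted p = 0.231), 3.24 on the middle control (unadjusted p = 0.000345 in limma, adjusted p = 0.0821) and 0.82 on the 3′ control (adjusted p = 0.149), and it was not called, against 0.296% of all probe sets called for this difference (0.186% higher and 0.110% lower). Over all arrays the 5 Actb differences for mdx minus normal lay between -0.14 and 0.43, with 95% intervals as wide as -1.82 to 1.53. The residual spread of 1436722_a_at was larger than that of 99.3% of probe sets. The 3′ minus 5′ difference of the Actb controls, a usual index of RNA quality, lay between 0.61 and 0.74 on mdx arrays of set 1 and between -0.05 and 0.61 on those of set 2, and between 0.24 and 0.63 on normal arrays of set 1 and between 0.08 and 0.31 on those of set 2. Its part in the split was not tested.

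**Figure D3:**
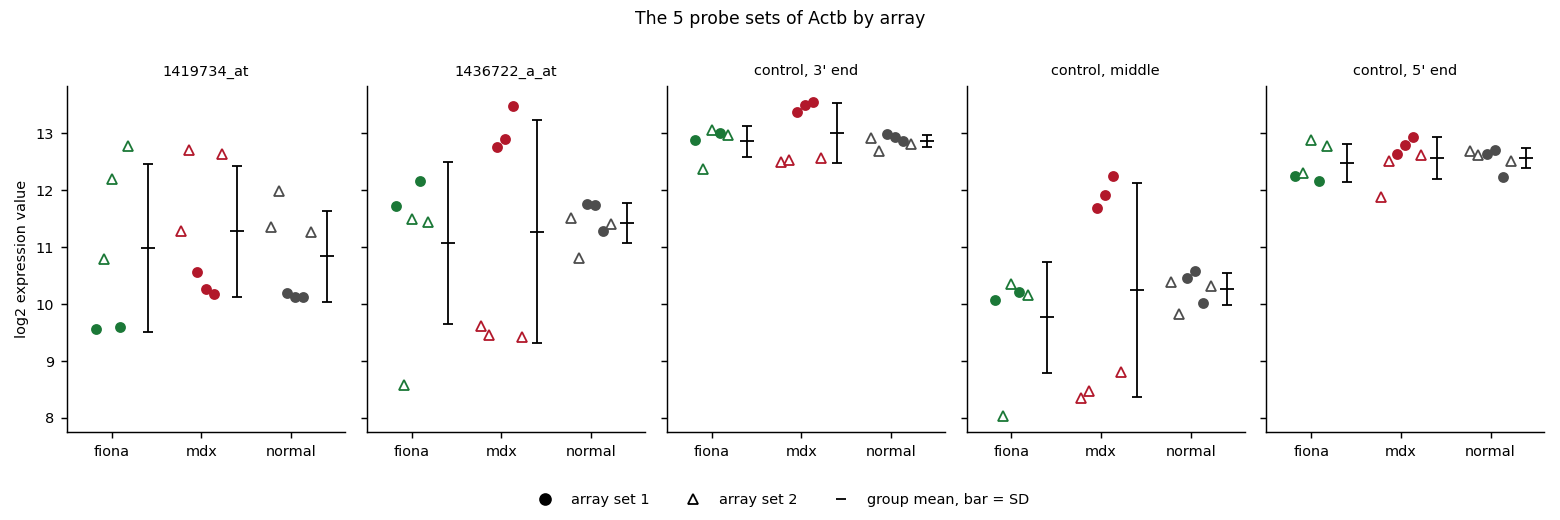
Log2 expression value (vertical axis, shared) of the 5 Actb probe sets on each fiona, mdx and normal array, with group means and bars of 1 standard deviation; filled circles are array set 1 and open triangles array set 2. On 1436722_a_at and on the control for the middle of the transcript the mdx arrays of set 1 lie above and those of set 2 below all normal arrays, and on 1419734_at the sets lie the other way round in every group.

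The muscle alpha-actinins were not called in any comparison. Actn2, the Z-disc alpha-actinin of all striated fibres, measured 12.29, 12.82, 12.72, 11.90 and 13.14 on fiona arrays 1 to 5. Its lowest, median and highest values were 11.11, 12.19 and 12.77 on mdx arrays and 11.49, 12.04 and 12.51 on normal arrays. The groups overlapped, and the difference was 0.02 for mdx minus normal (interval -0.58 to 0.63, adjusted p = 0.957), 0.54 for fiona minus mdx (-0.10 to 1.17, adjusted p = 0.160) and 0.56 for fiona minus normal (-0.07 to 1.20, adjusted p = 0.254). Fiona came first in the order of means, and mdx and normal muscle did not differ beyond their spread. The fiona minus mdx difference was 0.29 in set 1 and 0.63 in set 2, and fiona minus normal was 0.44 and 0.53. In set 2 the fiona arrays (12.72 to 13.14) lay above all mdx and normal arrays, while in set 1 fiona and mdx arrays overlapped. With array set as a block neither was called (adjusted p = 0.0926 and 0.193). Actn3, the alpha-actinin of fast glycolytic fibres, measured 13.88, 14.11, 14.22, 13.86 and 14.09 on fiona arrays 1 to 5, between 13.45 and 14.26 with a median of 14.00 on mdx arrays, and between 13.84 and 14.37 with a median of 14.21 on normal arrays. Its difference was -0.24 for mdx minus normal (interval -0.52 to 0.04, adjusted p = 0.320), 0.10 for fiona minus mdx (-0.19 to 0.39) and -0.14 for fiona minus normal (-0.43 to 0.15), and none was called. Intervals of this width still allow differences of up to 0.52 for Actn3 and 0.63 for Actn2 between mdx and normal muscle.

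Of the 4 probe sets of the non-muscle alpha-actinins, 2 were called lower and 1 higher in fiona than in mdx muscle. Over all probe sets 42.0% were called there (36.0% higher and 6.08% lower). With dim probe sets left out, only Actn1 probe set 1428585_at of these stayed called (adjusted p = 0.0238). Actn1, which crosslinks filaments at adhesions and stress fibres, measured 5.79, 5.40, 4.64, 5.98 and 4.85 on fiona arrays 1 to 5 on its brightest probe set, 1428585_at. Its lowest, median and highest values were 5.50, 7.04 and 7.97 on mdx arrays and 4.50, 5.60 and 6.62 on normal arrays. Fiona and mdx arrays overlapped through mdx array 2, the lowest mdx array, and 3 of 5 fiona arrays were below all mdx arrays. In fiona against mdx muscle this probe set fell 2.96-fold (5.33 ± 0.58 in fiona and 6.90 ± 0.92 in mdx muscle, log2 difference -1.57, interval -2.52 to -0.61, adjusted p = 0.0154, exact permutation p = 0.0152), with -1.35 in set 1 and -1.60 in set 2. The call was lost only without the female-pattern arrays, at a difference of -0.47 against the single fiona array left (adjusted p = 0.730). In mdx against normal muscle it was 2.48-fold higher (6.90 ± 0.92 in mdx and 5.59 ± 0.73 in normal muscle, log2 difference 1.31, interval 0.40 to 2.22), which was not called (adjusted p = 0.115, exact permutation p = 0.0238). It was higher in mdx muscle in 6 of 6 pairs of the same replicate number, with an adjusted p of 0.0526 with that number as a block on the mdx and normal arrays. With array set as a block the adjusted p was 0.0295, and it was 0.0325 without mdx array 2. The mdx minus normal difference was 1.12 in set 1 and 1.50 in set 2. In set 2 the mdx arrays 1, 2 and 6 measured 7.97, 5.50 and 6.22. The highest of all 17 values was thus on mdx array 1, whose Gapdh control stood apart, and it enters the set 2 value of both comparisons with mdx. With any single array left out, the difference over all arrays lay between 1.09 and 1.59 for mdx minus normal and between -1.85 and -1.35 for fiona minus mdx. Without the female-pattern arrays the mdx minus normal difference was 0.77 (adjusted p = 0.248). The difference of fiona from normal muscle was -0.26 (interval -1.21 to 0.70, adjusted p = 0.756), so the order was mdx, normal, fiona, with the last 2 not distinguished.

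The other Actn1 probe sets did not follow 1428585_at. Probe set 1452415_at, at 3.95, 3.83, 4.41, 4.09 and 4.20 on fiona arrays 1 to 5 and between 3.72 and 4.09 on mdx arrays and between 3.83 and 3.99 on normal arrays, was called higher by 0.25 in fiona than in mdx muscle (adjusted p = 0.0342). With dim probe sets left out its adjusted p was 0.0619. Probe set 1427385_s_at was above the bacterial controls on 2 of 17 arrays. Neither rose in mdx muscle, with differences from normal muscle of -0.06 and -0.05. Actn4, the other non-muscle alpha-actinin, measured 7.21, 7.44, 7.23, 7.22 and 6.64 on fiona arrays 1 to 5, with a lowest, median and highest value of 7.39, 7.45 and 7.79 on mdx arrays and of 7.08, 7.36 and 7.64 on normal arrays. It fell 1.27-fold in fiona against mdx muscle (7.15 ± 0.30 in fiona and 7.50 ± 0.15 in mdx muscle, log2 difference -0.35, adjusted p = 0.0369, exact permutation p = 0.00866), with 4 of 5 fiona arrays below all mdx arrays. The call held under 4 of 13 other fits. It was lost with dim probe sets left out (adjusted p = 0.0577), with quantile normalization (-0.14, adjusted p = 0.430) and without any 1 of fiona arrays 3 and 5 and mdx arrays 3, 4 and 5, with the smallest difference, -0.22, without fiona array 5. Against normal muscle the Actn4 differences were 0.13 in mdx and -0.22 in fiona muscle, and neither was called.

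The genes around actin are given as counts from lists of known partners, each gene represented by its brightest probe set, beside 4.50% of 12393 genes called in mdx against normal muscle (3.17% higher and 1.33% lower) and 40.9% in fiona against mdx muscle (33.9% higher and 7.00% lower). Of 20 measured genes of actin monomer binding and filament turnover, 6 rose and 1 fell in mdx against normal muscle, and 3 rose and 9 fell in fiona against mdx muscle. Scin, 1 of the 3 that rose, was at the control level on every array. With dim probe sets left out, 2 of 19 rose and 9 fell in fiona against mdx muscle, where 1486 of 9267 genes rose and 716 fell. The list medians were 0.74 and -0.76, against -0.04 and 0.08 over all genes. Tmsb10, a thymosin that holds actin monomers, rose 9.48-fold in mdx muscle (12.79 ± 0.47 in mdx and 9.55 ± 0.45 in normal muscle, adjusted p = 5.38e-06) and fell 5.00-fold in fiona against mdx muscle (10.47 ± 0.57 in fiona muscle, adjusted p = 0.000282). Coro1a, a coronin of leukocytes, rose 6.49-fold in mdx against normal muscle and fell 5.23-fold in fiona against mdx muscle. Cfl1, the non-muscle cofilin that severs filaments, rose by 1.66 and fell by 1.20 on the log2 scale in the same comparisons, while Pfn2, a profilin, fell by 0.51 in mdx against normal muscle. Cfl1 and Pfn2 were singled out after their values were seen.

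Genes of branched and cortical actin were counted beside the same shares over all genes. Of 17 genes of the Arp2/3 complex, which starts branched filaments, and its activators, 4 rose and 0 fell in mdx against normal muscle, with 7 higher and 1 lower at an unadjusted p under 0.05, and 3 rose and 8 fell in fiona against mdx muscle. Was, 1 of the 3 that rose, was at the control level on every array. With dim probe sets left out, 1 of 15 rose and 7 fell in fiona against mdx muscle. Arpc5, a subunit of the complex, rose 2.54-fold in mdx against normal muscle (adjusted p = 0.0114) and fell 2.34-fold in fiona against mdx muscle (adjusted p = 0.0120). Cttn, encoding cortactin, rose 1.80-fold in mdx against normal muscle, and Abi1, a subunit of the WAVE regulatory complex, fell 2.12-fold in fiona against mdx muscle. Of 24 cortical and bundling proteins, 5 rose and 1 fell in mdx against normal muscle and 2 rose and 6 fell in fiona against mdx muscle. In fiona against mdx muscle 33.3% of this list was thus called, no more than the 40.9% of all genes. Myo1f, 1 of the 2 that rose, was at the control level on every array. With dim probe sets left out, 0 of 22 rose and 5 fell in fiona against mdx muscle, where 1486 of 9267 genes rose and 716 fell. Lcp1, the plastin of leukocytes, rose 7.16-fold in mdx against normal muscle and fell 5.01-fold in fiona against mdx muscle. Tagln2, a transgelin, rose 2.86-fold in mdx against normal muscle. Vim, the mesenchymal intermediate filament protein vimentin that was listed with them, fell 2.69-fold in fiona against mdx muscle.

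Sarcomere partners of the members were counted in the same way. Of 20 Z-disc partners of alpha-actinin, 0 rose and 1 fell in mdx against normal muscle (1 and 4 at an unadjusted p under 0.05), and 3 rose and 1 fell in fiona against mdx muscle. Myot, encoding myotilin, fell 1.33-fold in mdx against normal muscle (12.83 ± 0.19 in mdx and 13.24 ± 0.09 in normal muscle, adjusted p = 0.00907). Tcap, the titin cap protein, was 1.62-fold higher in fiona than in mdx muscle, and Fhl1, a LIM protein of the sarcomere, 1.49-fold higher. Of 9 genes of thin filament length and capping, 0 were called in mdx against normal muscle in limma, with 0 higher and 4 lower at an unadjusted p under 0.05. The smallest p in that list was that of Tmod1, the pointed-end cap tropomodulin, whose difference was -0.56 (adjusted p = 0.0570). The single call among them in fiona against mdx muscle was Nebl, which was at the control level on every array.

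Of 15 genes of serum response factor signalling and its targets outside the members, 1 rose and 0 fell in mdx against normal muscle (1 and 1 at an unadjusted p under 0.05), and 2 rose and 2 fell in fiona against mdx muscle. Vcl, encoding vinculin, which also stands in the cortical list, rose 1.63-fold in mdx against normal muscle (adjusted p = 0.00825) and fell 1.56-fold in fiona against mdx muscle (adjusted p = 0.0120). Ccn2, a matrix protein, fell 3.73-fold in fiona against mdx muscle (5.66 ± 1.13 in fiona and 7.56 ± 0.94 in mdx muscle, adjusted p = 0.0210). Of 17 genes that fold or modify actin, mainly the chaperonin that folds new actin chains, 0 were called in mdx against normal muscle, with 3 higher and 1 lower at an unadjusted p under 0.05, and 0 rose and 1 fell in fiona against mdx muscle. That gene was Cct5, a chaperonin subunit, with a difference of -0.39, and the smallest p in mdx against normal muscle was that of Cct3, another subunit (0.31, adjusted p = 0.110). In fiona against normal muscle limma called 0 genes of any list and 0 of 12393 genes, with 2328 higher and 439 lower at an unadjusted p under 0.05.

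Markers of macrophages, fibroblasts and regenerating fibres were high in mdx muscle, where Actg1, Actc1 and the brightest Actn1 probe set were also highest. Of 22 macrophage and leukocyte markers, 19 rose and 0 fell in mdx against normal muscle and 0 rose and 20 fell in fiona against mdx muscle, and none of them was at the control level on every array. Their summed level (log2 of the summed signal) lay between 10.98 and 12.65 on fiona arrays, between 14.10 and 15.09 on mdx arrays and between 10.44 and 12.12 on normal arrays, so mdx arrays stood above all others. Mpeg1 and Tyrobp, both of macrophages and related cells, had the largest differences from normal muscle, 5.36 and 5.31. Of 17 fibroblast and matrix markers, 8 rose and 0 fell in mdx against normal muscle and 1 rose and 13 fell in fiona against mdx muscle, Tcf21 being at the control level on every array, with sums of 12.37 to 14.43, 14.78 to 15.71 and 13.56 to 14.61 on fiona, mdx and normal arrays. With dim probe sets left out, 0 of 16 rose and 13 fell in fiona against mdx muscle. Of 19 genes of regenerating and fetal fibres, the state in which Actc1 is expressed, 12 rose and 0 fell in mdx against normal muscle and 0 rose and 14 fell in fiona against mdx muscle. Their sums were 11.91 to 13.20 on fiona arrays, 13.18 to 14.73 on mdx arrays and 12.09 to 12.88 on normal arrays. Myh3, the embryonic myosin, rose 42.9-fold in mdx against normal muscle, and Myl4, a myosin light chain of embryonic and atrial muscle, fell 25.6-fold in fiona against mdx muscle. The part of these cells and fibres in the differences of Actg1, Actc1 and Actn1 was not tested.

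Acta2 is abundant in smooth muscle and pericytes. Of 16 markers of these cells, 1 rose and 1 fell in mdx against normal muscle, where 4.50% of all genes were called, and 2 rose and 1 fell in fiona against mdx muscle, with sums of 12.43 to 13.05 on fiona arrays, 12.45 to 13.05 on mdx arrays and 12.70 to 13.15 on normal arrays. Lmod1 and Itga8 were at the control level on every array, and with dim probe sets left out 1 of 14 rose and 0 fell in fiona against mdx muscle. Npnt, which encodes the matrix protein nephronectin, rose 3.68-fold and Rgs5, a pericyte marker, fell 1.48-fold in mdx against normal muscle. Among fast fibre genes, of which Actn3 is one, 0 of 14 were called in mdx against normal muscle, with 0 higher and 1 lower at an unadjusted p under 0.05, and 1 rose in fiona against mdx muscle, Myh1, by 0.22. Of 14 slow fibre genes, 2 rose, among them Tnni1 by 4.16, and 2 fell, among them Myl3 by 2.73, in mdx against normal muscle, and 4 rose and 5 fell in fiona against mdx muscle. Of 13 endothelial markers, 0 were called in mdx against normal muscle, with 0 higher and 2 lower at an unadjusted p under 0.05, and 1, Flt1, rose in fiona against mdx muscle.

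**Figure D4:**
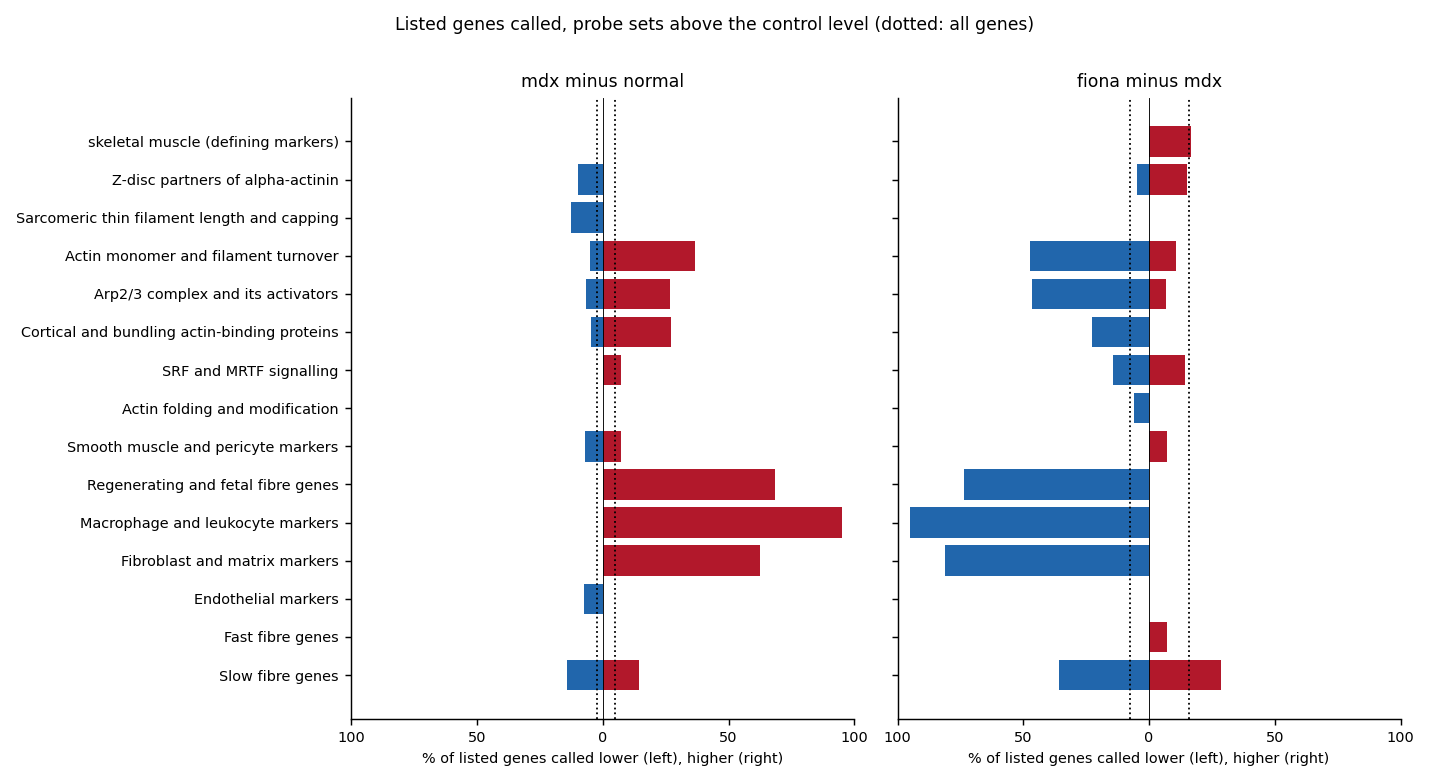
Share of listed genes called lower (left of zero) and higher (right of zero), in percent of the genes above the bacterial controls on at least 5 arrays, for mdx minus normal and fiona minus mdx; dotted lines are the shares over all genes. Macrophage, fibroblast and regeneration genes have the largest shares called in both panels.

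The genes most like each member over the 17 arrays were taken among 9257 genes, by Pearson correlation with its brightest probe set, a description over arrays that share groups and sets. Actc1 was most like Col3a1 (r = 0.90), a fibrillar collagen, Apoe (r = 0.90), a lipid carrier, and Eef1a1 (r = 0.89), a translation factor. With group means removed, these correlations were 0.75, 0.78 and 0.76. Actg1 was most like Gga2 (r = 0.93), a sorting protein of the Golgi, Lmna (r = 0.93), the nuclear lamin, and Reep5 (r = 0.90), which shapes the endoplasmic reticulum. Actn1 was most like Hif1a, Tm6sf1 and Cttn (each r = 0.94), of which Cttn binds actin itself. Acta2 was most like Ankrd10, Caprin1 and Hspa4 (each r = 0.93), and these correlations were 0.92, 0.90 and 0.92 with group means removed, so that they lay within groups, where Acta2 also followed the array sets (r = -0.80 with the component that defines them). Actn4 was most like Niban1 (r = 0.85), Emp2 (r = 0.82) and Stk38 (r = 0.80).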

How the data were processed

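The deposited value table of 17 Affymetrix arrays held log2 expression values per probe set, which the authors had normalised before deposit. RMA and GCRMA are both named in the submitters' processing notes without a version, with no word on which of them produced these values. The labels call the arrays biological replicates of 3 groups. Probe sets were named through the platform annotation, in which 691 carried several symbols and 1606 none. Leaving out 61 control probe sets without a member symbol, 22629 entered 1 limma fit (version 3.58.1, R 4.3.3) of 3 group means with empirical Bayes moderation and no covariate, and p-values were adjusted over all of them by Benjamini-Hochberg. Every adjusted p in the text is limma's unless a permutation is named. Exact permutation tests over arrays were two-sided, and 0.00216 was the smallest p that either group size allowed.

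A probe set counted as dim when it exceeded the array median of the unspiked bacterial controls on fewer than 5 arrays. All 17 member probe sets were described, and genes of 15 lists were represented by their brightest probe set. Per list and comparison the text names up to 2 called genes with the largest difference, or the one with the smallest p. The members and lists were chosen with earlier results of these data known. The fit was tested on simulated data. Same-numbered mdx and normal arrays shared residuals (r between 0.112 and 0.611 in 6 pairs). Both arrays of each of these pairs also lay in the same array set, so pairing by number and the array sets cannot be told apart. The main fit did not use the number. It entered only the counts of mdx and normal pairs and the alternative fits with a replicate block, although the labels state no pairing. No pairs with fiona arrays were counted. Alternatives were median centring, quantile normalization, the filter on dim probe sets, 1 probe set per gene, replicate number, array set, sex pattern and Gapdh 3′ minus 5′ as terms, female-pattern arrays left out, only the compared groups, trend and robust moderation, and each array left out. Array set as a block with the filter, mdx array 1 left out with the filter, and the replicate block on mdx and normal arrays alone were chosen after the data were seen.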

Additional observations from a re-analysis of the deposited data

Results flagged for a closer look

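In 51 tests of a single array against the rest of its group, of which chance passes about 1 in 20, 6 values stood apart. Fiona array 2 was low on 3 Actb probe sets that read the same transcript: 8.58 on 1436722_a_at (the nearest fiona array had 11.44), 8.03 on the control for the middle of the transcript (nearest 10.08) and 12.38 on the 3′ control (nearest 12.89). On the remaining Actb probe sets fiona array 2 lay within the range of the other fiona arrays. Actn4 measured 6.64 on fiona array 5 (nearest 7.21) and 7.79 on mdx array 4 (nearest 7.51), both of which widen the called difference of Actn4 between fiona and mdx muscle. Actn1 probe set 1427385_s_at measured 2.86 on mdx array 6 (nearest 2.64), close to the level of the bacterial controls.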

How the results depend on the processing

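In mdx against normal muscle, 1 member probe set of 17 was called, and 2 were with median-centred arrays, the filter on dim probe sets, 1 probe set per gene, only the compared groups, trend and robust moderation, the replicate block on mdx and normal arrays alone, or the filter without mdx array 1, and 4 with array set as a block, with or without the filter. With the replicate number as a block over 3 groups it was 1. Over all 22629 probe sets the 913 calls became 578, 1920, 545 and 2251 with 1 probe set per gene, array set as a block, female-pattern arrays left out, and array set with the filter. In fiona against mdx muscle the 6 member calls became 2 with quantile normalization, the replicate block or female-pattern arrays left out, and 3 with the filter, alone, with array set or without mdx array 1. The 9513 calls over all probe sets became 2475 (centred), 3356 (quantile), 3840 (filter), 4818 (1 per gene), 4505 (replicate block), 3169 (female-pattern arrays left out), 4971 (array set with filter) and 3204 (filter without mdx array 1). In fiona against normal muscle 1 call over all probe sets became 0 with 1 per gene, 2 with the replicate block or trend and robust moderation, 10 with array set, 21 with array set and filter, 4 with the filter without mdx array 1, and 1013 without female-pattern arrays, where 1 fiona array is left, assumed to vary like the other groups, and 1 member was called. Filters and 1 probe set per gene test fewer features, and the cause of the other shifts was not tested.

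With single arrays left out, member calls ranged from 1 to 3 in mdx against normal (2 without fiona array 1 or 3, 3 without mdx array 2), from 4 to 7 in fiona against mdx and stayed at 0 in fiona against normal muscle. Calls over all probe sets ranged from 665 to 1054, from 7000 to 10362 and from 1 to 2147, the last without fiona array 2 (5 without fiona array 1). The direction turned for Acta2 1456658_at in fiona minus mdx (-0.029 with centred arrays), and for Actg2 in fiona minus mdx (-0.20) and fiona minus normal (-0.28) without female-pattern arrays. Values near the bacterial controls, as for that Acta2 probe set, carry no measurable order.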
